A study of Mus musculus with 6 samples.

Results

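The sites described here are the summits of YAP and of acetylated lysine 27 of histone H3 (H3K27ac) in YAP-driven gastric tumor epithelium of the mouse. They were taken from the 3 tumor-labelled lists of the 6 in the series, restricted to chromosomes 1 to 19 and X. These lists hold 66532 H3K27ac summits, 38227 YAP summits in the library called tumor 1 and 53831 in tumor 2, together 158590 of the 184671 summits on those chromosomes. A YAP site of both libraries is a pair of summits at most 200 bp apart, placed between them, and there were 29468. A YAP site was called paired when the nearest H3K27ac summit lay within 1 kb.

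Chromatin immunoprecipitation sequencing was run on gastric corpus epithelium freed with EDTA, then fixed and frozen. Tumor mice had the genotype CluCreERT2;R26rtTA;HA-Yap+, in which a Cre under control of Clu is switched on by tamoxifen and an HA-tagged Yap by doxycycline, so recombination is limited to Clu-expressing cells and their descendants. The normal libraries, used here only beside the tumor lists, came from mice labelled WT. The labels give both groups the same treatment, intraperitoneal tamoxifen (2 mg on each of 5 days) followed by 14 days on food with doxycycline. No animal's age was stated, and nothing in the labels says that the YAP libraries came from separate animals, so the spread between them may be technical.

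YAP is a transcriptional coactivator without a DNA-binding domain of its own. It reaches chromatin mainly through the TEAD factors, often beside AP-1, and the Hippo kinases hold it in the cytoplasm. H3K27ac is laid down by the acetyltransferases p300 and CBP on nucleosomes that flank active promoters and enhancers. A coactivator summit therefore marks a bound DNA element, and an H3K27ac summit marks a nucleosome beside such an element.

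The words inside the deposited peak names go against the labels of the tumor 1 YAP library, whose names carry the word of the normal H3K27ac library. Tumor 2 carries the word of the tumor H3K27ac library, as does the normal 2 YAP library against its own label. Counts over all sites, gene lists and motifs are therefore given for both libraries together. Where named, they are also given for tumor 2 alone, which is the value that rests on no contradicted label, or for tumor 1 alone. YAP values given without a library name rest in part on tumor 1. Site values of single genes are for sites of both libraries. H3K27ac had 1 tumor library, so no value that rests on it has a replicate check. Scores are the authors' −log10 of a p or q value, used only within a list. Depth is unknown.

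The promoters below are examples, chosen after their values were seen, from 149 windows of listed genes with YAP within 250 bp and H3K27ac within 1 kb of the start. Of these windows, 68.5% held no match to the motifs marked, as in Gadd45a, and the other examples were picked to show a match of each kind. Each line gives the 250 bases before the transcript start, in the direction of the gene, from the RefSeq table of GRCm38.p6. Capitals mark a match, on either strand, to GGAATG (the core bound by TEAD), TGANTCA (AP-1), TGACGTCA (CRE, bound by CREB and ATF factors) or CCGGAAG (ETS factors).
Amotl2, chr9:102717554-102717803, plus strand, TEAD core: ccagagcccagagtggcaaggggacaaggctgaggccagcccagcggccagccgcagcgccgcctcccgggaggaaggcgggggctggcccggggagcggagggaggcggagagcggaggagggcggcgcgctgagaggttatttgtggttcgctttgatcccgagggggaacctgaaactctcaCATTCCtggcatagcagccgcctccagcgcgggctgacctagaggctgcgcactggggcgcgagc
Mob1a, chr6:83325789-83326038, plus strand, TEAD core: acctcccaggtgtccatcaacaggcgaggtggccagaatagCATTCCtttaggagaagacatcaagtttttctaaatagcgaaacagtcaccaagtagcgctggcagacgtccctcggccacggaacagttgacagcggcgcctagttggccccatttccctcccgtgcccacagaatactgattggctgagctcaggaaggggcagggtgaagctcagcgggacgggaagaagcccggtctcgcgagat
F3, chr3:121723287-121723536, plus strand, AP-1: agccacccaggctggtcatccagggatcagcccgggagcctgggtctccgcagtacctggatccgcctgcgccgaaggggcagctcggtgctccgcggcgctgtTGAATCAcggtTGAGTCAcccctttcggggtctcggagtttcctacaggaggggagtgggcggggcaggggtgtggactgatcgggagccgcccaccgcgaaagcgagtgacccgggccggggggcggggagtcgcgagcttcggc
Areg, chr5:91139349-91139598, plus strand, CRE: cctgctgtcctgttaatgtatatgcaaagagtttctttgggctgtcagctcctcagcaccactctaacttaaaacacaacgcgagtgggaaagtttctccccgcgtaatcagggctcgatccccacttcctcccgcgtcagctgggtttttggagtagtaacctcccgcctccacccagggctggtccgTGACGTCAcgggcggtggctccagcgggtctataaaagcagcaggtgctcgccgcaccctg
Rps6, chr4:86857368-86857617, minus strand, ETS: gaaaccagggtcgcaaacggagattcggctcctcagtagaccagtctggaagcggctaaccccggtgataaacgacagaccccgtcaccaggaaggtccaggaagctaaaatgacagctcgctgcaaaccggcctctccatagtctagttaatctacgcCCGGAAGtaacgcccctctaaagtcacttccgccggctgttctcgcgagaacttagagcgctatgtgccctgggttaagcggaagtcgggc
Mki67, chr7:135716380-135716629, minus strand, ETS: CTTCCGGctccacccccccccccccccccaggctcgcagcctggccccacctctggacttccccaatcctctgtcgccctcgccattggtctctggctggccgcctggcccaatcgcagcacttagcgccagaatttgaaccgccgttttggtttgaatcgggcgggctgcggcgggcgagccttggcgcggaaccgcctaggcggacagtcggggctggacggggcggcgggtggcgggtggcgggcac
Gadd45a, chr6:67037408-67037657, minus strand, no match: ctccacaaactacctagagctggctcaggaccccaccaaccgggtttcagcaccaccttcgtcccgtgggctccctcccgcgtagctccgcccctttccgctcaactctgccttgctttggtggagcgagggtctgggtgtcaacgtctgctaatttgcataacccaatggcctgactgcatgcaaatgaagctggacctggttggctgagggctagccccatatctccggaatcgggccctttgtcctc

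At the start of Amotl2, which encodes an angiomotin that holds YAP in the cytoplasm, the YAP summit scored 32.7 in tumor 1 and 49.7 in tumor 2, and the H3K27ac summit 253 bp away scored 289. At Mob1a, the cofactor of the LATS kinases, the YAP scores were 38.5 and 52.6 and the H3K27ac summit lay 51 bp away. Rps6, a ribosomal protein gene, had a site scored 27.7 and 40.2 with H3K27ac 196 bp away, and Areg, an EGFR ligand, a lower one (14.4 and 29.2). Paired promoters thus included genes of the Hippo pathway and of general cell growth.

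The first comparison asked how closely YAP and H3K27ac lay. Of the YAP sites of both libraries, 15322, or 52.0% (95% Wilson interval 51.4 to 52.6, counting error only), were paired, against 10.9% after the H3K27ac list was shifted by 10 kb. The share was 50.8% of the summits of tumor 1 and 42.0% of those of tumor 2 (46.4% ± 6.27, SD, n = 2), and 47.6% for tumor 2 shortened to the length of tumor 1. YAP summits that tumor 1 did not share with tumor 2 were paired in 47.0% and those of tumor 2 alone in 29.9%. The median distance to the nearest H3K27ac summit was 766 bp, against 8124 bp after the shift, and it was 893 bp in tumor 1 and 2506 bp in tumor 2. Another 24.3% of sites had their nearest H3K27ac at 1 to 10 kb, and 23.7% had none within 10 kb.

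A gene start below is the transcript start where the table holds it and otherwise either end of the gene. Of the YAP sites, 34.3% lay within 1 kb of a gene start, and 94.5% of these were paired at a median distance of 197.5 bp. Of the 19356 sites farther away, 29.8% were paired against 10.9% after the shift, and their median distance was 5046.5 bp. In tumor 2 alone these shares were 91.98% and 25.01%. Among paired distal sites, 32.2% had the H3K27ac summit within 100 bp, against 28.5% of paired sites near starts.

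**Figure D1:**
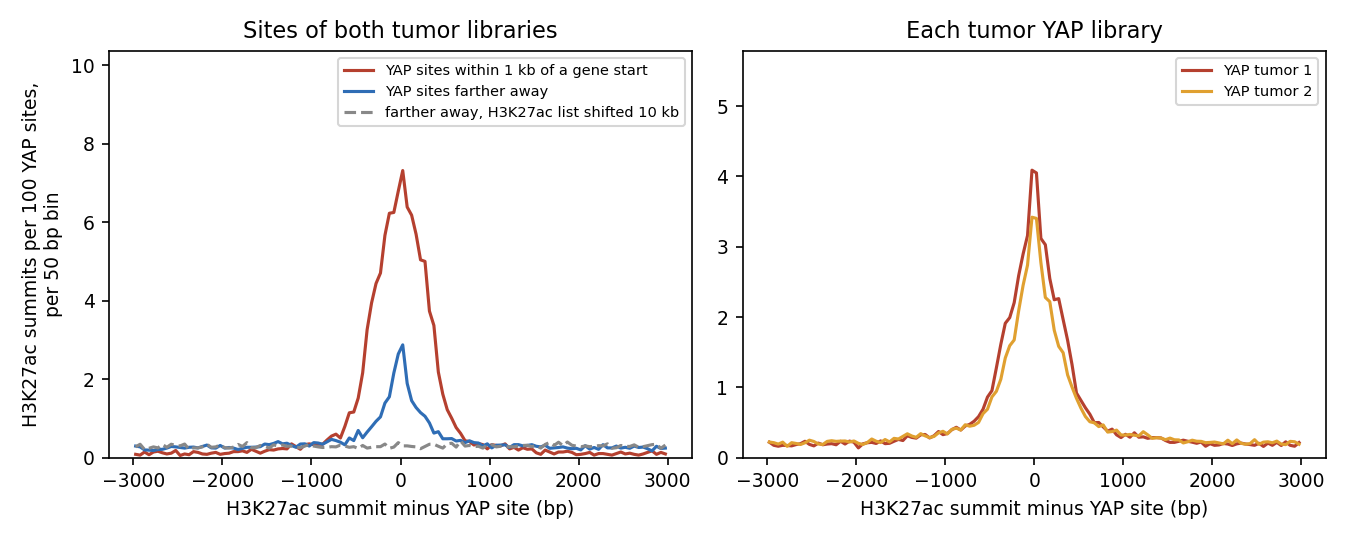
H3K27ac summits per 100 YAP sites in 50 bp bins of distance, for sites near and away from gene starts (left) and for each tumor YAP library (right). The peak around 0 bp is higher near starts, where 94.5% of sites were paired, and lower away from them, where 29.8% were, and the dashed line shows the distal sites against the list shifted by 10 kb.

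Seen from the mark, the overlap was smaller. Of all H3K27ac summits, 24.4% had a YAP site of both libraries within 1 kb, against 5.12% after the shift. The share was 65.0% of the summits near gene starts and 11.95% of the 50887 elsewhere. With tumor 1 alone it was 29.5% over all summits, and with tumor 2 alone 33.8%.

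Around transcript starts, YAP and H3K27ac took different places. Within 1 kb of a start and counted in the direction of the gene, YAP sites had a median position of +8 bp (+10 in tumor 1, +22 in tumor 2), and 51.3% lay within 100 bp of the start. Tumor H3K27ac summits had a median of +182 bp and normal ones +190 bp. Of the tumor H3K27ac summits, 59.1% lay 100 to 400 bp inside the gene and 9.28% at the same distance upstream. At the 7091 YAP sites within 250 bp of a start, H3K27ac within 1 kb lay only on the gene's side in 76.4%, only upstream in 13.1% and on both sides in 6.63%.

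**Figure D2:**
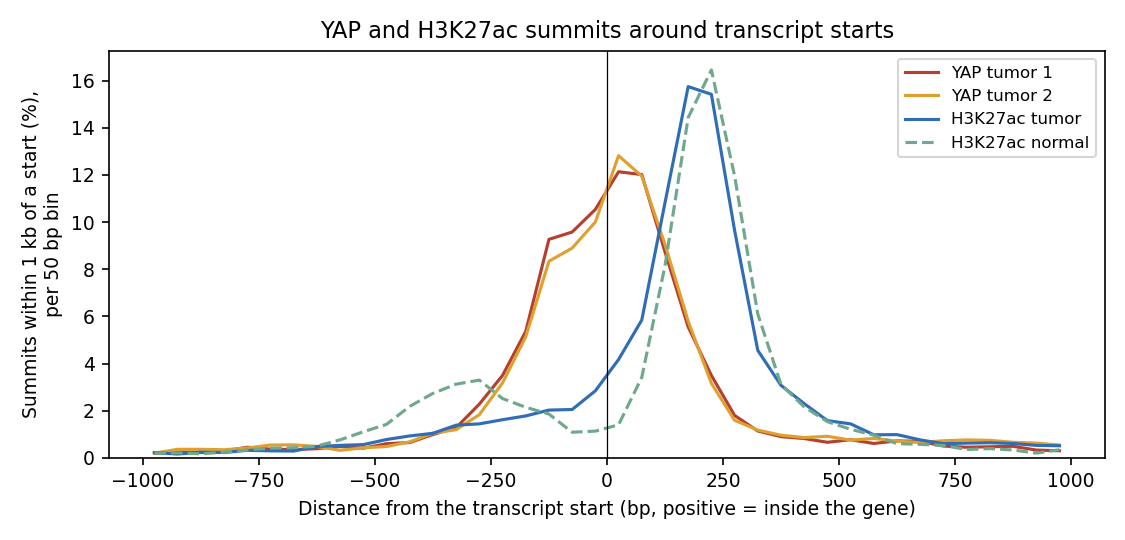
Share of the summits within 1 kb of a transcript start in 50 bp bins, in the direction of the gene, for both tumor YAP libraries and for tumor and normal H3K27ac. YAP summits center near the start (median +10 bp and +22 bp) and tumor H3K27ac summits inside the gene (median +182 bp).

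Better-scored sites were more often paired. In the best decile of YAP sites 93.5% were paired, falling to 30.6% in the last, while the shifted share stayed between 9.40% and 12.2%. The best decile also lay near a start in 77.1% of cases and the last in 12.8%. Within 1 kb of starts the paired share went from 99.3% to 81.5%, and farther away it went from 74.1% to 23.2%. With tumor 2 alone, 89.6% of the best decile and 29.5% of the last were paired. Of the best H3K27ac decile, 88.5% had a YAP site of both libraries, 98.9% a tumor 1 summit and 99.4% a tumor 2 summit, and in the 8th decile 8.42% had a site of both.

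Over the 15322 paired sites, the YAP rank and the rank of the nearest H3K27ac summit had a Spearman rho of 0.54. It was 0.47 near starts and 0.25 away from them. For tumor 1 and tumor 2 alone, rho was 0.50 and 0.54 over all paired sites. Near starts it was 0.44 and 0.53, and away from them 0.16 and 0.19. These are descriptions across sites that share their libraries, and part of the relation over all sites goes with position. Of the paired YAP sites in the best decile, 69.5% had a partner in the best H3K27ac decile, against 8.64% in the last.

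**Figure D3:**
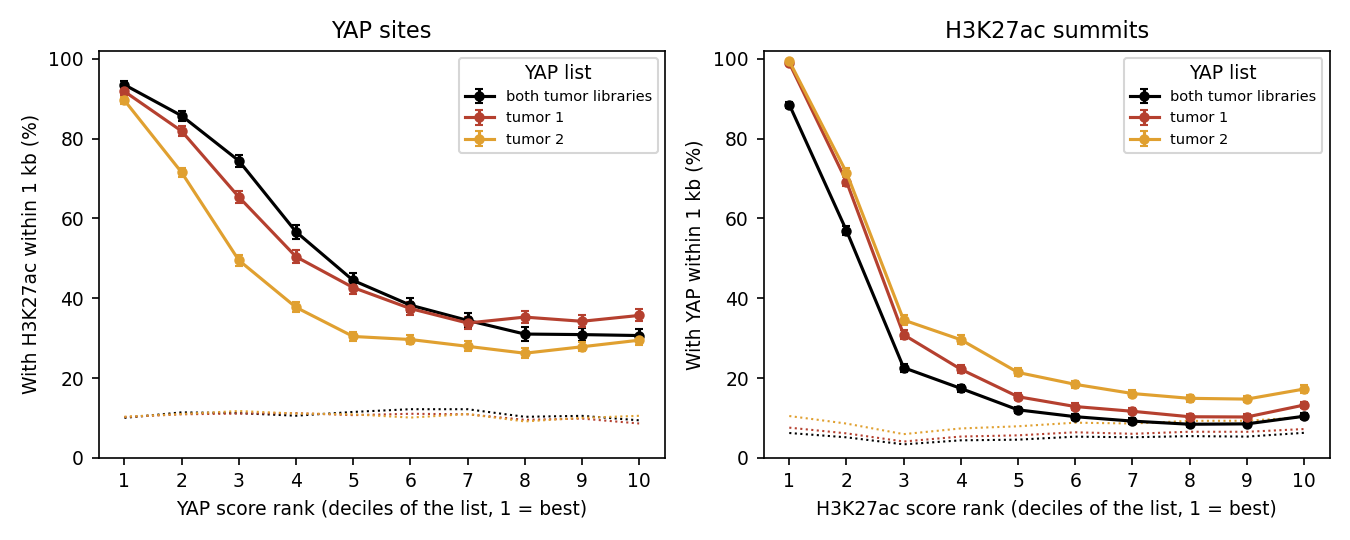
Share of YAP sites with H3K27ac within 1 kb by YAP rank (left) and of H3K27ac summits with YAP within 1 kb by H3K27ac rank (right), in deciles, with Wilson 95% intervals and dotted lines for the list shifted by 10 kb. Pairing drops from 93.5% to 30.6% over the YAP deciles and from 88.5% to 10.4% over the H3K27ac deciles.

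Set beside the normal H3K27ac list, many tumor YAP sites lay at H3K27ac already present in normal epithelium. Of the sites, 40.6% had a summit of both H3K27ac lists within 1 kb, 11.4% of the tumor list only, 6.78% of the normal list only and 41.2% of neither. The normal list of 22386 summits reached 47.4% of the sites, and the best-scored tumor summits at that length reached 39.1%. The gap was at distal sites, with 26.8% against 14.0%, while near starts the shares were 86.7% and 87.4%. Tumor 2 alone showed the same order, 34.8% for the normal list and 28.7% for the tumor list. Of its summits, 28.8% had a summit of both H3K27ac lists, 13.2% of the tumor list only, 6.03% of the normal list only and 52.0% of neither. With 1 library of each, the difference was not tested.

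Each summit was assigned to the gene with the nearest start within 50 kb. Of 21631 protein-coding genes, 10767 (49.8%) had a paired YAP site. YAP and H3K27ac were both assigned to 12404 genes (57.3%), YAP only to 695 (3.21%), H3K27ac only to 5271 (24.4%) and neither to 3261 (15.1%). In all, 60.6% of genes had YAP and 81.7% had H3K27ac. Among genes with H3K27ac, 70.2% had YAP. With tumor 2 alone in place of both libraries, 3267 genes had H3K27ac only, and with tumor 1 alone 4055. Of the 695 genes with YAP only, 159 had a paired site whose H3K27ac summit went to the neighboring gene. Over the 17251 genes with a transcript start in the table, the region within 1 kb of the start held both in 47.7%, YAP only in 1.56%, H3K27ac only in 19.9% and neither in 30.8%.

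Gene lists, chosen with earlier results of these data known, are described by their counts beside the 49.8% of all genes with a paired site. Lists with high counts included YAP/TAZ targets (23 of 28), Hippo pathway (21 of 25), AP-1 (13 of 14), acetyltransferases (8 of 9), gastric lineage factors (17 of 20), proliferation (21 of 25) and housekeeping genes (18 of 18). The housekeeping count shows that a high share is not particular to YAP targets. The share was lowest in immune genes (1 of 20), endocrine and tuft cells (3 of 18), stroma and endothelium (4 of 18) and intestinal genes (3 of 13). Olfactory and vomeronasal receptor genes, which stomach epithelium does not use, had a paired site in 17 of 1465. With tumor 2 alone, where 59.9% of all genes had a pair, the counts were 27 of 28 YAP/TAZ targets, 23 of 25 Hippo genes, 14 of 14 AP-1 genes and 18 of 18 housekeeping genes. Acetyltransferases had 9 of 9, gastric lineage factors 20 of 20 and proliferation genes 23 of 25. The counts were 1 of 20 immune, 5 of 18 endocrine and tuft, 7 of 18 stroma and endothelium and 5 of 13 intestinal genes.

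**Figure D4:**
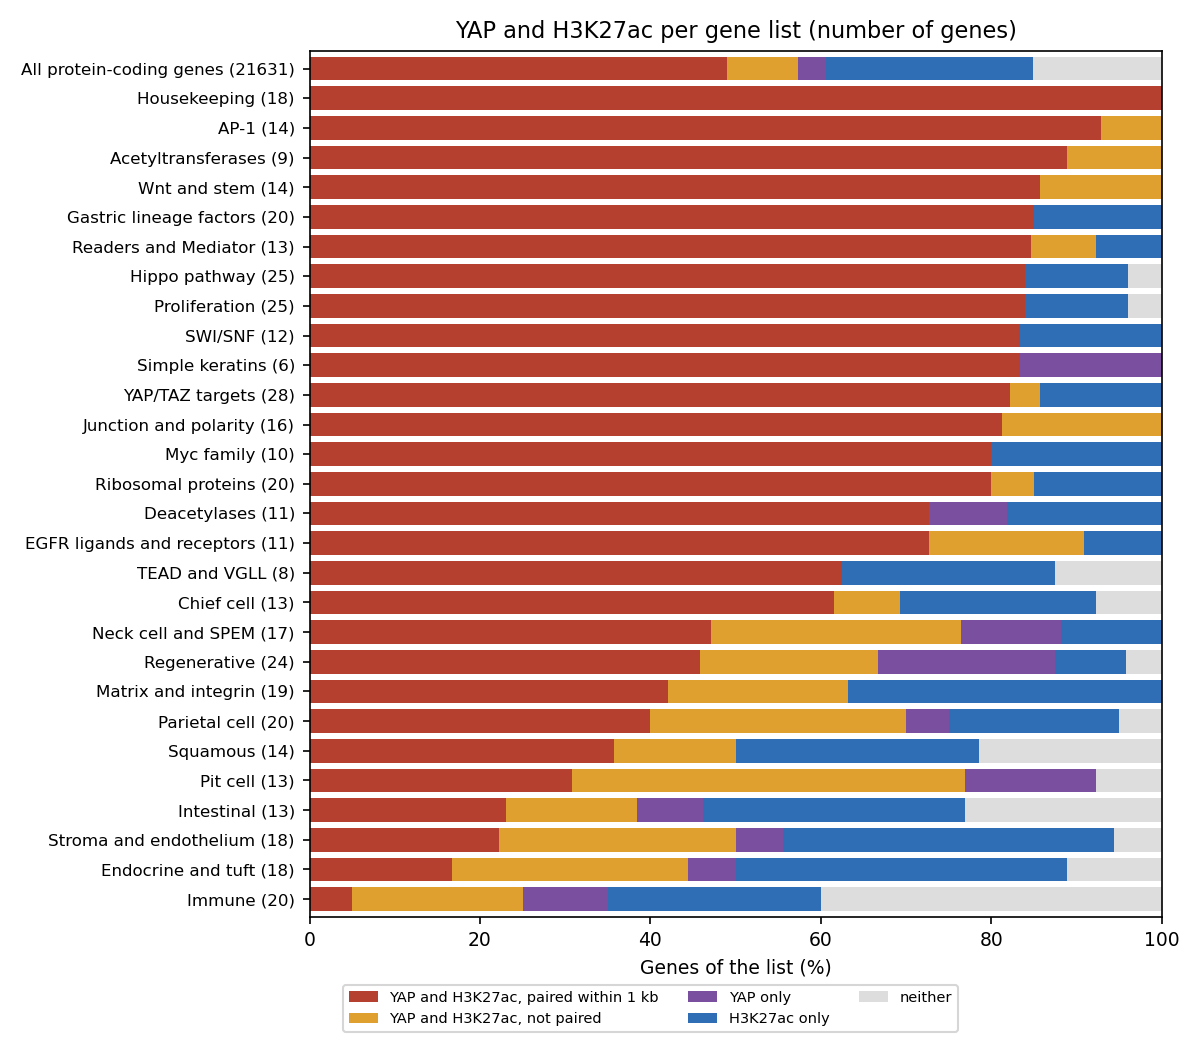
Share of the genes of each list (number of genes in parentheses) with YAP and H3K27ac paired within 1 kb, both but not paired, YAP only, H3K27ac only or neither. Housekeeping genes have a pair in 18 of 18 and immune genes in 1 of 20, and pit cell genes have 6 of 13 with both but no pair. A gene whose paired H3K27ac summit went to a neighbor is drawn under YAP only.

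Marker genes say little about the tissue label, since 81.7% of all genes had H3K27ac assigned. It was assigned to 18 of 20 parietal, 12 of 13 chief and 10 of 13 pit cell genes, and to 10 of 20 immune and 16 of 18 stroma and endothelium genes. The immune genes Spi1 and Adgre1 had 5 H3K27ac summits each, Cd3e had 0, and Col1a1, a stromal collagen gene, had 10. The part of such cells in the H3K27ac list was not tested.

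Among YAP/TAZ targets, Ccn1, which encodes a matricellular protein, had 7 YAP sites and 6 H3K27ac summits with 5 pairs, 4 of them away from its start. Its start site scored 10.3 in tumor 1 and 21.1 in tumor 2, with H3K27ac 88 bp away. Ccn2, its close relative, had 2 YAP sites and 1 pair, at a distance of 954 bp. Amotl2 had 6 sites and 4 pairs, while F3, the initiator of coagulation, had 5 sites but 1 pair, since its locus held 1 H3K27ac summit. Gadd45a, a stress-response gene, had a start site scored 29.4 and 44.8 with H3K27ac 320 bp away.

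The targets Ankrd1, Axl, Fjx1 and Rbms3 had H3K27ac but no YAP site of both libraries. Ankrd1 had 0 summits in tumor 1 and 1 in tumor 2, and Axl, a receptor tyrosine kinase, had 1 and 3, none of them shared. Crim1 had 1 YAP site of both libraries that was not paired, while either library alone gave it 1 pair. Of the 28 targets, 13 had a paired site over 1 kb from a start, against 15.2% of all genes.

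Of the 22 Hippo genes with a transcript start in the table, 17 had both marks within 1 kb of it, against 47.7% of all genes and 12 of 13 housekeeping genes. Fat1, a protocadherin gene, had H3K27ac only at its start and its 3 pairs farther away, and Amot had neither mark at its start. Among upstream kinases, Taok1 had a start site scored 29.0 and 45.8 with H3K27ac 312 bp away, and Stk3 and Stk4 (the MST kinases) had 1 pair each. Nf2, the scaffold merlin, scored 20.4 and 27.6 with H3K27ac 425 bp away. Lats2, a kinase that phosphorylates YAP and is itself a YAP target, scored 19.3 and 32.7 with H3K27ac 172 bp away. Lats1 had no summit assigned, although both marks lay within 1 kb of its start and went to a neighboring gene. The protocadherin genes Fat4 and Dchs1 had H3K27ac and no YAP site of both libraries.

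Yap1 itself had 1 YAP site, scored 10.6 and 18.5, with H3K27ac 587 bp away. Wwtr1, which encodes TAZ, had 1 H3K27ac summit, 1 YAP summit in tumor 1 and 2 in tumor 2, none of them shared. Of the genes for the DNA-binding partners, Tead1 had 6 YAP sites and 3 pairs, Tead4 had 4 and 2, Tead3 had 1 and 1, and Tead2 had none. Vgll4, which competes with YAP for TEAD, had 3 sites and 2 pairs.

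AP-1 genes had a median of 2 YAP sites, as did housekeeping genes, with Fos and Fosb at the upper end. Fos had 9 YAP sites and 7 H3K27ac summits with 6 pairs, 5 of them over 1 kb from a start, and its start site scored 25.2 and 32.2 with H3K27ac 383 bp away. Fosb had 5 pairs, Junb 3, Atf3 3 and Fosl2 3. Fosb's start site lay 20 bp from H3K27ac and Junb's 269 bp. Jund had 1 pair. All 14 AP-1 genes had both marks, and the exception to pairing was Batf2, named after its value was seen.

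Genes for enzymes and readers of acetylation came next. Ep300 and Crebbp, which encode p300 and CBP, each had 1 YAP site, scored 30.5 and 50.3 at Ep300 and 29.6 and 47.2 at Crebbp, with H3K27ac 408 and 68 bp away. Kat6a scored 56.6 and 87.0. At Kat7 the H3K27ac summit ranked 58th with a score of 378, and its YAP site of both libraries lay 10186 bp from it. Either tumor library alone gave Kat7 1 pair. Among deacetylases, Hdac2 scored 28.9 and 42.5 with H3K27ac 17 bp away, Hdac8 had YAP only, and Hdac9 and Hdac11 had no YAP site of both libraries. Of the readers and Mediator genes, Cdk8 had the site ranked 20th of all (193.5 and 249.3), 39 bp from H3K27ac. Med23 scored 72.2 and 79.6, and Med1 had none of both libraries. The sites of Ep300, Kat6a, Med23 and the best of Cdk8 each had a normal YAP summit within 1 kb, as did the Yap1 site and both paired sites of Vgll4. Without such sites the pairs of Ep300, Kat6a, Med23, Yap1 and Vgll4 numbered 0, and Cdk8 had 1.

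Pit cell genes had YAP in 12 of 13, against 60.6% of all genes, and a pair in 4 of 13, against 49.8%. The low count of pairs was not seen with tumor 2 alone, which gave 8 of 13, against 59.9% of all genes, while tumor 1 alone gave 4. Gkn1, a secreted gastrokine, had 3 YAP sites and no H3K27ac, and its site 170 bp from the start scored 6.32 and 21.0. Tff1, a trefoil peptide, had 5 YAP sites and 3 H3K27ac summits, with none paired. Foxq1, a factor of mucous cells, had 8 YAP sites and 2 pairs, and its best site (31.4 and 37.4) lay 20336 bp from H3K27ac. Muc5ac, the surface mucin, had 4 sites and 1 pair.

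Of the 20 parietal genes, 8 had a pair, against 49.8% of all genes, and 13 had one with tumor 2 alone, against 59.9%. The proton pump gene Atp4a had 6 H3K27ac summits and 1 YAP site, scored 16.6 and 26.0, at 5899 bp from H3K27ac. Tumor 1 alone gave Atp4a 1 pair and tumor 2 alone gave 2. Ezr, the membrane linker of the canaliculus, had 7 YAP sites and 3 pairs, and Car2, a carbonic anhydrase, had its start site (27.5 and 28.9) 17 bp from H3K27ac. Chief cell genes had a pair in 8 of 13, also with tumor 2 alone, against the same 49.8% and 59.9% of all genes. Xbp1, a factor of secretory cells, had 5 pairs, all away from its start, and Spdef had 3. Clu, the gene whose promoter drives Cre, scored 24.9 and 35.9 at its start with H3K27ac 232 bp away. Sox9, a progenitor factor, had 1 pair among 2 sites.

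Of 24 genes of regenerative epithelium, 12 had a pair, a share close to that of all genes (49.8%), and 15 had one with tumor 2 alone. YAP only was assigned to 5 of the 24, against 3.21% of all genes, and to 6 with tumor 2 alone, against 4.80%. Itga6, a laminin receptor, scored 23.0 and 35.03 at its start with H3K27ac 380 bp away, and Ereg, an EGFR ligand, had its best site (19.6 and 32.5) 23852 bp from H3K27ac. The genes with YAP only were Anxa1, Il33, Spp1, Cxcl16 and Il1rn, named after their values were seen, and Il33 had 6 YAP sites without an assigned H3K27ac summit. Cxcl16 was paired with a summit assigned to a neighbor.

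Pair counts of single genes moved with the settings. Of 61 named genes, the count changed by over 1.5 times in 19 when summits were assigned within 10 kb. Under that limit Fos fell from 6 to 2 pairs, Ccn1 from 5 to 2, Xbp1 from 5 to 1, Ezr from 3 to 0, and Ccn2 and Muc5ac from 1 to 0. With tumor 2 alone, Xbp1 had 8 pairs, Krt80 6, Elf3 5 and Atp4a 2, and Tff1, Crim1, Kat7 and Ereg had 1 where the sites of both libraries gave 0. With tumor 1 alone, Atp4a, Crim1 and Kat7 had 1, and Tff1 and Ereg had 0. Gkn1 and Krt20 had 0 with either library.

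The keratins of simple epithelium showed both patterns within a family. Krt8 and Krt18, partners in 1 filament, had 3 pairs each and Krt19 had 4, whereas Krt20, a marker of surface cells, had 3 YAP sites and no H3K27ac. Its best site scored 4.19 and 18.97, and the nearest H3K27ac lay 27978 bp away. Krt80 had the best-ranked YAP site of the family (36.0 and 70.8), which lay 3535 bp from H3K27ac and was not paired.

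Of 20 gastric lineage factors, 17 had a pair, against 49.8% of all genes. Klf5, a factor of proliferating epithelium, scored 23.1 and 45.6 at its start with H3K27ac 343 bp away. Elf3 had 8 YAP sites and 3 pairs, and the site 119 bp from its start was 1657 bp from H3K27ac. Ctnnb1, which encodes β-catenin, scored 33.3 and 48.0, and Rnf43, which removes Wnt receptors, had 3 YAP sites and no pair. Mki67, the Ki-67 gene, had 3 sites, all paired, and its start site scored 21.6 and 29.3.

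Outside the lists, the genes with the most pairs were Rhou, with 15 among 18 YAP sites, Gas8 with 11, and Gm40363 and BC107364 with 9 each. Casz1, a zinc finger factor, had 8. All 9 YAP sites of Gm40363 had a normal YAP summit within 1 kb. Of the 10 YAP sites of BC107364, 8 lay within 500 bp of an snRNA or tRNA gene. The best-ranked YAP sites without H3K27ac within 10 kb, at genes without any H3K27ac, lay near Med6, Ifna13 and Hepacam2. The Med6 site scored 36.8 and 79.0, lay 48 bp from its start and was 36047 bp from the nearest H3K27ac. Among genes with many H3K27ac summits and no YAP summit of either library, Pax2 had 14 H3K27ac summits, the best of them ranked 25894.

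The clusters at Rhou and Gas8 led to small RNA genes, a view chosen after the data were seen. Between these genes lies a tandem array of 40 annotated 5S ribosomal RNA genes (chr8:123538784-123616928), with a median spacing of 1702 bp. RNA polymerase III transcribes 5S and tRNA genes. The array and its 2 kb flanks held 29 YAP summits in tumor 1 and 30 in tumor 2, which made 26 sites, 10 of them assigned to Gas8 and 8 to Rhou. Of the 26 sites, 25 were paired, always with H3K27ac at the higher coordinate, at a median of 255 bp (quartiles 222 and 287). H3K27ac recurred there at about the spacing of the genes, so most positions in the array lie within 1 kb of a summit. The number of pairs there, with those it gives to Gas8 and Rhou, was therefore nearly fixed by that spacing. Of the 40 genes, 52.5% had a YAP site within 500 bp and 50.0% also H3K27ac within 1 kb. Over all 62 annotated rRNA genes the shares were 45.2% and 43.5%. After the 10 kb shift, 16 of the 40 and 22 of the 62 still had YAP, and a shifted site can land near another copy of the tandem array. Tumor H3K27ac had 41 summits there and normal H3K27ac, normal 1 YAP and normal 2 YAP had 0. The best of the 41 ranked 27710th, beyond the 22386 summits of the whole normal list, so the 0 cannot be told apart from the shorter list. Copies of 5S genes are nearly identical, so the copy a read came from is uncertain.

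**Figure D5:**
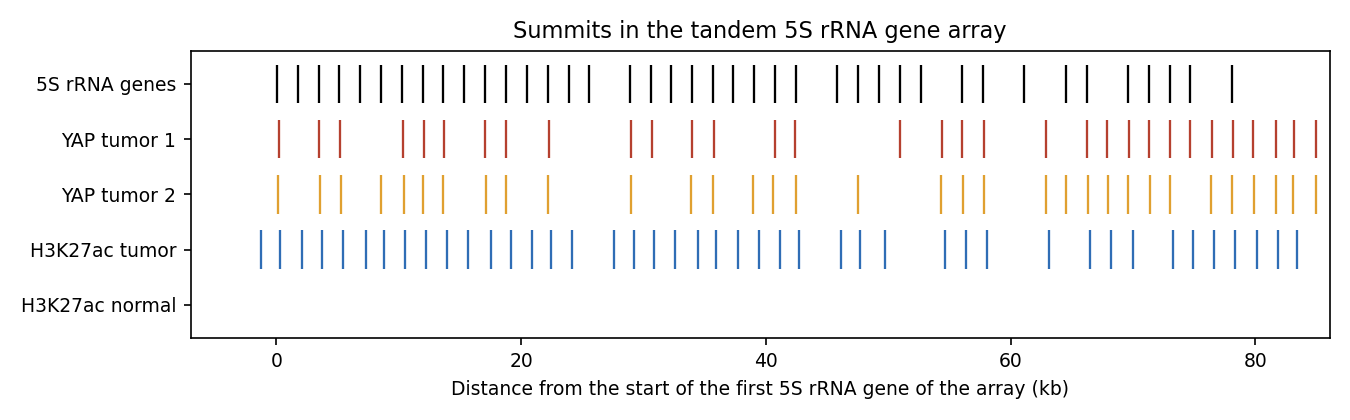
Positions of 40 annotated 5S rRNA genes and of the summits of each list, in kb from the start of the first gene. YAP summits of both tumor libraries and tumor H3K27ac recur at the spacing of the genes (median 1702 bp), the normal H3K27ac track is empty, and summits of the tumor lists go on past the last annotated gene.

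The tRNA genes, also transcribed by polymerase III, had YAP too. Of 408 tRNA genes, 157 (38.5%, 95% Wilson interval 33.9 to 43.3) had a YAP site of both libraries within 500 bp, at a median of 58 bp, against 10 after a 10 kb shift. The number was 185 with tumor 1 and 215 with tumor 2 alone. H3K27ac lay within 1 kb of 84 of the 157 (20.6% of all tRNA genes) and of 126 tRNA genes in all, against 112 with the normal list, and a normal YAP summit lay near 13. Many tRNA genes also share sequence with copies. In other classes, YAP was near 4.69% of 1003 snRNA, 2.39% of 1340 snoRNA and 6.60% of 1228 microRNA hairpin genes. It was near 1.55% of 1229 pseudogenes under 400 bp. These were 47, 32, 81 and 19 genes, against 12, 17, 31 and 26 after the shift, so pseudogenes had fewer than after it. With H3K27ac as well, the shares were 3.79%, 1.27%, 5.70% and 0.895%.

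The 4 best-scored tumor H3K27ac summits lay 236 to 241 bp from the genes Rnu3b4, Rnu3b2, Rnu3b3 and Rnu3b1 on chromosome 11, annotated as snRNA and named after their values were seen. They encode U3 RNA, which acts in ribosomal RNA processing. At Rnu3b4 the H3K27ac score was 465, with YAP 65 bp away (99.98 in tumor 1 and 155.2 in tumor 2). The YAP ranks at all 4 were between 51 and 98, and normal H3K27ac lay within 12 bp, at ranks 6 to 16. Of the 100 best H3K27ac summits, 95 had a YAP site of both libraries, 81 lay near a gene start and 8 lay within 500 bp of a tRNA, rRNA, snRNA or snoRNA gene. Over all H3K27ac summits the shares were 24.4%, 23.5% and 0.314%.

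The last comparison asked which motifs lay in promoters with both. It used 21020 windows from 250 bp before to 50 bp after a transcript start. Of these, 7933 had a YAP site of both libraries within 250 bp and H3K27ac within 1 kb of the start. Another 4278 had H3K27ac and no YAP site of both libraries within 1 kb, so some held a summit of a single tumor library. Such windows without YAP numbered 2902 with tumor 1 alone and 2249 with tumor 2 alone. CCGGAAG was found on either strand in 22.7% (21.8 to 23.6) of the 7933, 8.25% (7.46 to 9.11) of the 4278 and 11.7% of all. TGACGTCA was found in 4.12%, 1.75% and 2.26%, the NRF1 motif in 2.61%, 1.05% and 1.34%, and the GC box GGGCGG in 71.8%, 55.4% and 46.6%. The E-box CACGTG was found in 11.4%, 7.99% and 7.91%, and CCAAT in 38.6%, 34.9% and 38.5%. TATAAA was found in 5.94%, 8.46% and 12.7%. Motifs were searched separately, and matches of different motifs may overlap.

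The letters of YAP's usual partners did not follow that order. GGAATG was found in 10.9% (10.2 to 11.6) of promoters with both, 13.0% (12.1 to 14.1) of those with H3K27ac alone and 13.5% of all, and in 9.53% of promoters with a best-decile YAP site. TGANTCA was found in 4.30%, 5.61% and 7.04%. With tumor 2 alone, CCGGAAG was found in 21.3% of promoters with both and 4.80% with H3K27ac alone, GGAATG in 11.1% and 12.4%, and TGANTCA in 4.29% and 6.49%. The 278 promoters with YAP and no H3K27ac had TGANTCA in 14.0% (10.4 to 18.6) and GGAATG in 15.8% (12.01 to 20.6). In the 6816 promoters with neither, the shares were 11.7% and 17.3%, both inside those intervals. With tumor 2 alone, 499 promoters had YAP and no H3K27ac, with TGANTCA in 16.0% and GGAATG in 18.4%. With tumor 1 alone there were 345, with 12.2% and 15.7%. Whether these groups differ from promoters with neither was not tested. Base composition moved with the groups, with a median GC content of 62.3% with both, 60.3% with H3K27ac alone and 56.7% in all windows. It was 51% with YAP and no H3K27ac and 46% with neither. Within windows of 50 to 60% GC, CCGGAAG was found in 24.3% with both and 8.17% with H3K27ac alone, and GGAATG in 13.8% and 14.9%. At 60 to 70% GC, CCGGAAG was found in 24.9% and 10.6%, and GGAATG in 9.80% (8.85 to 10.8) and 13.0% (11.4 to 14.9). At 70 to 80% GC, the shares were 16.7% and 7.02% for CCGGAAG and 7.31% and 7.94% for GGAATG. Over these bands in turn, TGANTCA was found in 5.64%, 3.82% and 2.36% with both. With H3K27ac alone it was found in 6.19%, 5.31% and 2.14%. The NRF1 motif was found in 2.60%, 2.96% and 2.15% with both, and in 0.894%, 1.01% and 2.29% with H3K27ac alone. Distal sites, where most YAP lay, were not searched.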

How the data were processed

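Summit lists (1 bp each) were used as deposited by the authors, 1 per library. Per the submitters' processing notes, alignment and peak calling involved Bowtie2 and MACS2 on the build GRCm38 (mm10). For versions, threshold and control, the entry is: not given in the sources used here. Each deposited score is a −log10 value from the authors' peak caller. No source used here says whether it stands for a p-value or for a q-value.

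YAP summits of both tumor libraries were joined within 200 bp. Distances, ranks and gene assignments (nearest start within 50 kb) were computed in Python 3.11.15 (scipy 1.17.1, pandas 2.3.3, numpy 2.4.6), and matplotlib 3.10.9 drew the figures. Scripts were tested on simulated data. Gene positions came from RefSeq tables of GRCm38.p6, with transcript starts for 17251 of 21631 genes. Of the list symbols, 6 were not found in the table.

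The members, the 28 gene lists and the alternatives were chosen with earlier results of these data known. Genes named are any YAP/TAZ target, Hippo, TEAD/VGLL or chromatin gene, up to 6 per other list by best YAP rank, and 10 outside the lists by each of 3 rules (most pairs, best YAP without H3K27ac, most H3K27ac without YAP). No test was made, since H3K27ac has 1 tumor library. Intervals cover counting error only. Summit lists hold no depth. Sites on chromosome Y, on mitochondrial DNA and on unplaced contigs were left out. A few results that the naming rule selects are not reported here. Gene lists, H3K27ac lists and motifs with each YAP library alone, and pair counts without sites near a normal YAP summit, were alternatives chosen after seeing the data.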

Additional observations from a re-analysis of the deposited data

Results flagged for a closer look

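By raw count, YAP summits on mitochondrial DNA and on unplaced contigs were more numerous in the tumor-labelled than in the normal-labelled libraries. Those on chromosome Y were not, with 41 and 73 against 80 and 20. On mitochondrial DNA there were 12 in tumor 1 and 13 in tumor 2, against 1 and 0 in the normal libraries, and the tumor H3K27ac list had 0. On unplaced contigs there were 76 and 93, against 30 and 43. The tumor YAP lists are also far longer, with 38356 and 54010 summits in all against 1685 and 2184 in the normal lists. As a share of the list, unplaced contigs and chromosome Y held less in both tumor libraries than in either normal library. The mitochondrial shares of the tumor libraries lay between those of the normal libraries. Tumor 1 carries a contradicted label.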

How the results depend on the processing

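Of 86 alternative values of the main results, 60 stayed within the set limit and 26 moved more. For shares, distance and rho the limit was the SD between tumor 1 and tumor 2, and for gene counts 1.5 times. For the median distance that SD was 1140.56 bp, above the main value of 766 bp, so no fall could pass it. A change of sign was possible only for rho. The share of YAP sites with H3K27ac was 27.4% at a pairing distance of 200 bp, 59.5% and 77.4% for YAP scores of at least 5 and 10, and 43.5% with the H3K27ac list shortened to its better-scored 50%. The share of H3K27ac summits with YAP was 12.1%, 21.0% and 27.7% at 200 bp, 500 bp and 2 kb, 20.97% and 14.7% at scores of at least 5 and 10, 39.5% for the shortened list, and 72.5% for the normal list, an alternative chosen after seeing the data. The median distance was 3909 bp with the shortened list and 2446.5 bp with the normal list. The rank correlation was 0.25 away from genes and 0.47 near them. Genes with YAP only numbered 265 at scores of at least 10, 1610 with the shortened list and 2708 with the normal list, and genes with H3K27ac only 9345 at scores of at least 10 and 1460 with the normal list. With 1 YAP library left out, the share of YAP sites ranged from 41.98% to 50.8%, that of H3K27ac summits from 29.5% to 33.8%, the median distance from 893 to 2506 bp, rho from 0.50 to 0.54, and genes with H3K27ac only from 3267 to 4055. Genes with both ranged from 13620 to 14408, with YAP only from 844 to 1039 and with a pair from 12188 to 12949. These lists are longer by construction, since a site need not be in both libraries. Pair counts of single named genes moved by over 1.5 times in 17 of 61 at scores of at least 10 and in 19 of 61 with assignment within 10 kb. No paired analysis was possible because no result comes from a test and H3K27ac has 1 tumor library. Summit lists give no depth, so a missing summit cannot be told apart from one under the caller's threshold.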
